A study of Homo sapiens with 6 samples.

Results

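The 447 regions described here were open in wild-type (WT) human neural progenitor cells (NPCs) and in NPCs lacking both KDM6 demethylases, and had no called peak once the knockout cells expressed BAF53B. They were chosen by list membership alone: a peak of the WT ATAC-seq list that overlapped a peak of the double-knockout (dKO) list by at least 1 bp and overlapped none of the dKO + BAF53B list. They made up 5.67% of the 7880 WT peaks and 7.15% of the 6255 WT peaks that overlapped a dKO peak, and the other 5808 of those 6255 peaks were present in all 3 lists. The number depended on the lists' thresholds: it was 216 with a −log10 q of at least 10 in all 3 lists, 33 with 10 in WT and dKO alone and 826 with a reciprocal overlap of 50%. ATAC-seq marks open chromatin by the sites at which a transposase can insert into DNA. NPCs were derived from H1, an established human embryonic stem cell line. The 3 groups, of 2 samples each, were WT NPCs, NPCs with UTX (KDM6A) and JMJD3 (KDM6B) knocked out, and NPCs with the same double knockout that also carried BAF53B from a lentivirus. The WT and dKO cells were at passage 2. The passage of the BAF53B-carrying cells is not given in the sources used here. Transduction itself and BAF53B cannot be told apart, since no dKO sample with a control virus was analysed here.

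UTX and JMJD3 remove methyl groups from lysine 27 of histone H3, the mark laid down by Polycomb repressive complex 2 on silenced developmental genes. BAF complexes are ATP-driven chromatin remodellers that slide or evict nucleosomes, and they exchange subunits as neural progenitors become neurons. In progenitors the actin-related subunit is BAF53A, and in post-mitotic neurons it is replaced by BAF53B, the product of ACTL6B. Open chromatin at a promoter or enhancer is where transcription factors can reach their motifs.

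Each group was deposited as 1 peak list pooled over its 2 samples, so no value below has a replicate error and no p-value could be given. The lists held 7880 WT, 25439 dKO and 16948 BAF53B peaks, all at a −log10 q of at least 5. Lengths differed more than 3-fold, and 55.7% of all dKO peaks overlapped no BAF53B peak, against the 7.15% of shared WT peaks described here. Promoter peaks did not set the progenitor label apart. Of 13 progenitor and radial glia markers, 2 (HES1 and VIM) had a promoter peak in WT NPCs. In dKO cells 8 did, and after BAF53B 6 did. Over all 20046 protein-coding genes the shares with a promoter peak were 28.0% in WT, 56.0% in dKO and 44.6% with BAF53B. In the same order, the counts were 1, 4 and 1 of 4 epithelial markers and 0, 2 and 1 of 5 mesenchymal markers. They were 1, 2 and 2 of 7 neuronal, 0, 1 and 2 of 6 glial and 0, 1 and 1 of 5 pluripotency markers. Of 4 endothelial and blood markers they were 0, 1 and 1. None of the 13 progenitor and radial glia markers held one of the 447 regions, and only HES1 and VIM had the WT promoter peak needed to do so.

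The sequences that carry the description are shown first, read from the plus strand of hg38. The first 4 come from the KDM6B gene, a target of the knockout, and from 3 regions outside promoters, the highest by dKO −log10 q among those whose summits lay close together and whose printed window held no annotated untranslated sequence. In these the capitals run from the WT summit to the dKO summit. The WT summit of the KDM6B stretch (chr17:7851881-7851981) lies in intron 18 of 24 exons, and the label below gives that position. Bases after the capitals match part of the study's primer for JMJD3 transcripts, so the stretch also reaches into an exon. The others lie in intergenic DNA, 12961 bp upstream of the DDIT4 start (chr10:72260884-72260984), 3900 bp upstream of CNOT3 (chr19:54133798-54133898) and 3262 bp upstream of LSM10 (chr1:36401114-36401214).
KDM6B intron 18: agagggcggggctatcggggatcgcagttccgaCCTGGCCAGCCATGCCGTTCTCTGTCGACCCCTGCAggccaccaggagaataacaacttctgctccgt
DDIT4 upstream: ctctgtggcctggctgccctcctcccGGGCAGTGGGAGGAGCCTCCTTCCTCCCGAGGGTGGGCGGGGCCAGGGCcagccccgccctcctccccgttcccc
CNOT3 upstream: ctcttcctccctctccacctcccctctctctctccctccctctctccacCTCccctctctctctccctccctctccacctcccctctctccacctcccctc
LSM10 upstream: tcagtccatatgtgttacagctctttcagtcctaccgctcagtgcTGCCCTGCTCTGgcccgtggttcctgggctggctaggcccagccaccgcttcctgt

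The next stretches hold the CTCF core, the motif of the insulator protein CTCF. Like some other motifs given below, it was present in a larger share of these regions than of the regions in all 3 lists. Capitals mark the motif. They lie 5′ of PSMD1 in its promoter (chr2:231056519-231056619), in intergenic DNA near AP1M1 (chr19:16247732-16247832), in the promoter window of BNIP1, in its intron 1 (chr5:173144991-173145091), and in intron 1 of CYS1 (chr2:10072706-10072806).
PSMD1 promoter: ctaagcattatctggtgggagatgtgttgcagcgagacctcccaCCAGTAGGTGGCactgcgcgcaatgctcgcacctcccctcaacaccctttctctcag
AP1M1 intergenic: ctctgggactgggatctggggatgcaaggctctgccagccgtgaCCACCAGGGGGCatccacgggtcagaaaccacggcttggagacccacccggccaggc
BNIP1 promoter: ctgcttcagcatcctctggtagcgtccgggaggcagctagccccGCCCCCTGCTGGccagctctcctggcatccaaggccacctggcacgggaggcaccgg
CYS1 intron: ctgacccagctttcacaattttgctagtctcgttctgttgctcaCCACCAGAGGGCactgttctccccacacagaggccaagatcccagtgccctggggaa

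The last set shows the X-box bound by RFX factors and the AP-1 site bound by FOS and JUN dimers, again in capitals. The X-box is shown at the PPM1E promoter (chr17:58755627-58755727), in intergenic DNA near SLC22A11 (chr11:64490051-64490151) and in intron 1 of GAS7 (chr17:10086184-10086284). The AP-1 site, TGANTCA, is shown within NDRG4 (chr16:58495187-58495287) and in intergenic DNA near DDHD1 (chr14:53217383-53217483) and CTLA4 (chr2:203808155-203808255).
PPM1E promoter: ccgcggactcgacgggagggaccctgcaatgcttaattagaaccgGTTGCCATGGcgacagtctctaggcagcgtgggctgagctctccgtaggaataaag
SLC22A11 intergenic: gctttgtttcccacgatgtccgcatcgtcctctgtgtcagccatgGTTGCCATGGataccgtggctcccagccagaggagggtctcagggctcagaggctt
GAS7 intron: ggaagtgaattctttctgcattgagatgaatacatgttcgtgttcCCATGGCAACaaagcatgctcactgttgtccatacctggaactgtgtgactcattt
NDRG4 intron: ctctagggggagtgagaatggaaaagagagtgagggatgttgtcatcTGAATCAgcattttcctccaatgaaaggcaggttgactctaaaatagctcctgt
DDHD1 intergenic: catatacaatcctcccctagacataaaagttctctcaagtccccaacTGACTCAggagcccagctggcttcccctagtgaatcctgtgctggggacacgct
CTLA4 intergenic: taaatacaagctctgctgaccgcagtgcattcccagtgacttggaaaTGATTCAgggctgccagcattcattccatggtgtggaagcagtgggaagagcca

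The regions were weak peaks of the WT list. The pileup, the number of reads overlapping the summit as recovered from the deposited fold and −log10 p, had a WT median of 32 and ran from 25 to 76, against a median of 39 in the peaks of all 3 lists. Their WT −log10 q had a median of 6.31, against 9.86, and 106 of the 447 lay under 5.5, just inside the listing threshold. The WT peaks had a median width of 383 bp and their dKO partners of 605 bp, against 542 and 835.5 bp in the peaks of all 3 lists. These values belong to the contrast that chose the regions and are given as a description.

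The dKO pileup is that of the summit of the overlapping dKO peak, which lay inside the WT region in 415 of the 447 and outside it in 32. Its median was 43, from 25 to 125, against 72 in the peaks of all 3 lists, and over the 415 it was 42, from 25 to 115. Relative to the genome background of each list, dKO was above WT in 347 of the regions and below it in 100. The median log2 difference was 0.32 (95% interval 0.27 to 0.36 over regions), and it was 0.73 (0.72 to 0.75) in the peaks of all 3 lists. With lists of equal length these medians were 0.74 and 0.84, and from the deposited fold they were 0.12 and 0.46, so both the level and the gap depended on the processing. A dKO value at least 1.5 times WT was seen in 127 regions, or 28.4%, where the share over all 6255 shared peaks was 59.8%. A dKO value below WT was seen in 22.4%, where the share over all shared peaks was 8.51%. Within bands of WT strength the gap between the medians remained: at a WT −log10 q of 5 to 6 the medians were 0.36 and 0.74, and at 6 to 8 they were 0.28 and 0.76. These bands did not hold the dKO pileup fixed, and peaks of low dKO pileup were more often missing with BAF53B. The rule itself thus favours a low dKO value at a given WT strength, and the gap is a description, not a test.

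**Figure D1:**
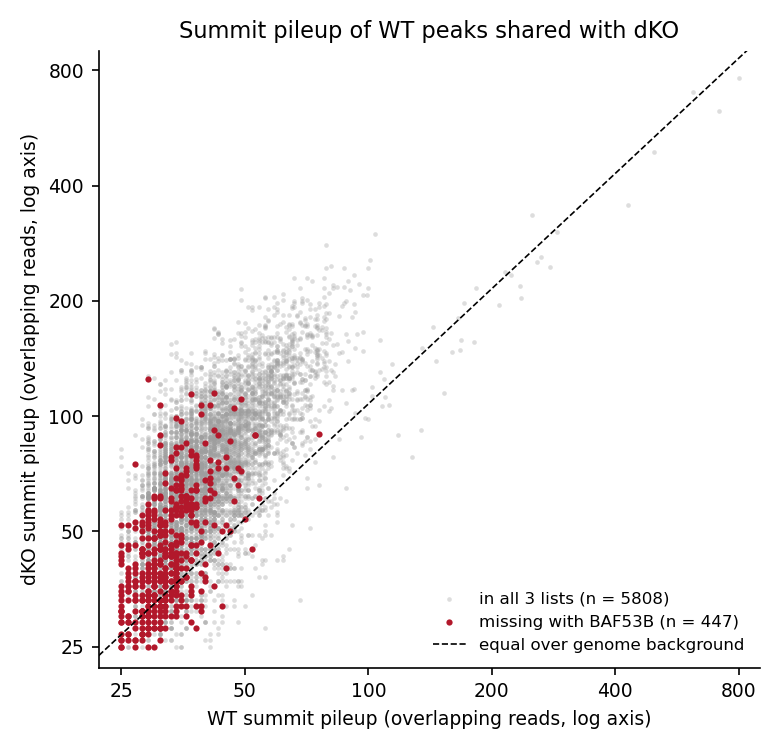
Summit pileup in WT (x axis) and dKO (y axis), in overlapping reads on log axes, for the 447 regions missing with BAF53B (red) and the 5808 in all 3 lists (grey), with a dashed line of equal pileup over genome background. The red points crowd the low end of both axes, from 25 to 76 in WT and from 25 to 125 in dKO, where the highest, at CRKL, was read outside the WT region.

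How often a shared WT peak was missing with BAF53B followed its strength. Missing means no call above a fixed threshold, so the rule itself favours such a fall, which is given as a description. The share missing was 18.4% (176 of 959) at a WT −log10 q of 5 to 6 and 12.4% (175 of 1412) at 6 to 8. It was 4.19% (72 of 1719) at 8 to 12 and 1.11% (24 of 2165) at 12 and over. For each region a BAF53B calling limit was computed, the smallest pileup that would reach the lowest −log10 p of the BAF53B list at the local background of the dKO peak scaled to the BAF53B depth. The share missing was 39.4% where the scaled dKO pileup was under that limit, 28.4% and 15.8% in the 2 bands from 1 to 1.5 times it, 5.45% at 1.5 to 2, 1.16% (27 of 2333) at 2 to 3 and 0.156% (1 of 643) at 3 and over. The single region at 3 and over was CRKL, whose dKO summit lay outside the WT region.

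**Figure D2:**
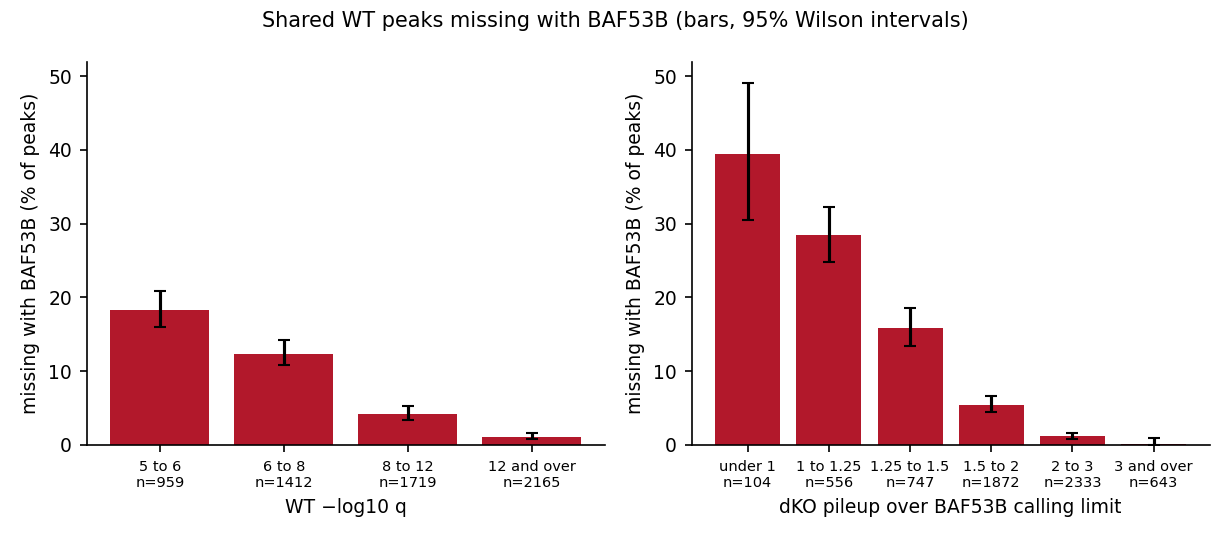
Share of the WT peaks shared with dKO that were missing with BAF53B, in percent, by WT −log10 q (left) and by the scaled dKO pileup over the BAF53B calling limit (right), with the number of peaks under each bar and Wilson 95% intervals. The share falls from 18.4% to 1.11% on the left and from 39.4% to 0.156% on the right, a fall that the rule itself favours.

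The limit itself was a median pileup of 32. At BAF53B depth, the dKO pileup of 406 of the 447 regions was at or over the limit, that of 130 was at least 1.5 times it and that of 28 at least 2 times it. The 130 were 29.1% of the regions, where the share over all shared peaks was 77.5%. The limit is an approximation: the true BAF53B background at the peaks in all 3 lists was a median of 0.896 of the one assumed, and 5.15% of those peaks were called below it. Of the 28, the dKO summit lay inside the WT region in 24. For these 24 a missing peak sets an upper bound for the BAF53B pileup, under the assumed background, of at most 48.2% of the dKO pileup. No such bound holds for the other 4, at CRKL, BCLAF1, NPM1 and CSRP2. Among the peaks in all 3 lists, 495 of 5808 had a BAF53B pileup under 50% of dKO.

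**Figure D3:**
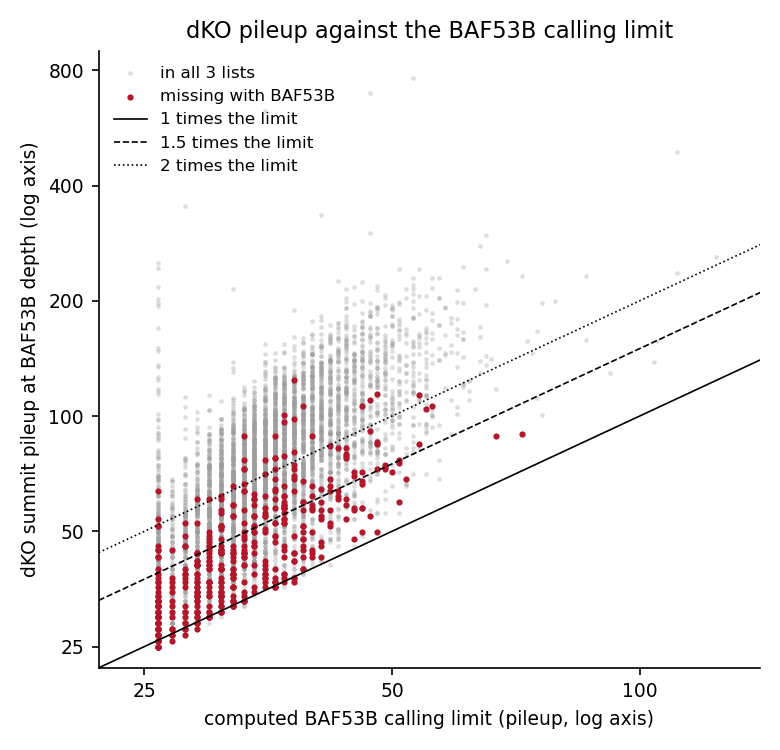
Computed BAF53B calling limit (x axis) and dKO summit pileup scaled to BAF53B depth (y axis), as pileup on log axes, for regions missing with BAF53B (red) and in all 3 lists (grey), with lines at 1, 1.5 and 2 times the limit. Of the red points, 28 lie at or above the dotted line of 2 times the limit and 41 lie under the solid line.

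The 24 regions had a dKO pileup of 54 to 115 against limits of 26 to 54, and 17 of them were promoters. At the other 4 the dKO peak itself was not missing, since it overlapped a BAF53B peak. At CRKL, an adaptor of growth factor signalling, the WT pileup was 29 and the dKO pileup of 125 was read 701 bp from the WT summit, in a dKO peak that ran into a BAF53B peak 236 bp from the WT region. At BCLAF1, NPM1 and CSRP2 the dKO summit lay 574, 720 and 667 bp from the WT summit. Over all 447 regions the dKO partner also lacked a BAF53B peak in 429, or 96.0%, and in 18 it reached one.

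In those of the 17 promoters named next, the highest by dKO −log10 q, the nearest BAF53B peak was kilobases away. SLC25A37, the mitochondrial iron importer, had a pileup of 39 in WT and 107 in dKO against a limit of 39. RO60, an RNA-binding protein that binds Y RNAs, had 43 in WT and 89 in dKO against 33. TUT4, which adds uridines to RNA 3′ ends, had 35 and 97 against 37. In all 3 the dKO value was more than 2 times the pileup needed for a call with BAF53B. HROB, a factor of homologous recombination, had 34 and 99 against 38. ASB6, a SOCS box protein, had 49 and 111 against 47. The gene ENSG00000254553 on chromosome 1 had 39 in WT and 101 in dKO against 37. TMEM9 had 31 and 89 against 36, and TMEM129, an E3 ubiquitin ligase of the endoplasmic reticulum, had 31 and 107 against 46. Their WT pileups were all under 50.

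The regions of highest WT −log10 q were chosen by that value and those before them by dKO −log10 q, so the steps from WT to dKO of these sets are not compared. EID2 had a WT pileup of 54 and 61 in dKO against a limit of 31. PPM1E, a serine/threonine phosphatase gene whose X-box is printed above, had 48 and 66 against 32. INO80, the ATPase of the INO80 chromatin remodeller, had 48 and 73 against 33. In all 3 the dKO pileup was above the limit. CLEC16A, a mitophagy regulator, had 53 and 89 against 40, with another BAF53B peak in its promoter window. VPS72, a histone H2A.Z loading subunit, had 45 and 73 against 33 in an intronic region. SAP18, of the SIN3 deacetylase complex, had 45 and 52 against 31. The remaining regions of the 10 with highest WT −log10 q were intergenic: a pair on chromosome 1 at 143213052 and 143193631, 1 near C1QTNF3-AMACR and 1 on chromosome Y nearest to VAMP7. The chromosome 1 pair had 52 and 39 in WT and 45 and 32 in dKO.

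At the low end of the dKO to WT ratio, the 5 regions were lower in dKO than in WT over background. MSH3, a mismatch repair gene, had 44 in WT and 32 in dKO at a region 2332 bp from its start, a log2 difference of −0.57. The TBL1XR1 intergenic region had 37 and 29, and the NENF intergenic region had 39 and 31. The other two were the second chromosome 1 region and a second VAMP7 region on Y. Their limits were 31, 28 and 31 for the 3 named genes, so dKO was at the limit itself. At the high end were CRKL, whose dKO summit lay outside the region, TMEM129, CCND1, HROB and TMEM9, and the log2 differences of the last 4 were 1.68, 1.52, 1.44 and 1.42.

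The regions were less often promoters than the peaks in all 3 lists, and this was seen at each WT strength. A summit within 3 kb of the start of a protein-coding gene was found in 221 regions, or 49.4% (44.8 to 54.1), against 73.6% (72.4 to 74.7). Another 124 were intergenic, 83 intronic and 19 exonic. At a WT −log10 q of 5 to 6 the promoter shares were 47.7% and 62.8%, at 6 to 8 they were 50.9% and 70.3%, and at 8 to 12 they were 47.2% and 73.7%. At 12 and over, with 24 regions, the share was 58.3% (38.8 to 75.5) against 79.3% (77.5 to 80.9), and the intervals did not overlap in any of the 4 bands. Read the other way, 4.92% of shared promoter peaks were missing with BAF53B, against 11.1% of intronic and 16.0% of intergenic ones. Promoter regions also lay farther from the start: 158 of 221 summits (71.5%) were within 500 bp of it, against 88.1%. The position values move with dKO strength too, and the part of that strength in them was not tested. Of the 28 regions with a scaled dKO pileup at least 2 times the BAF53B limit, 21 were promoters. The matching share of the peaks in all 3 lists was not computed. The promoter share of the regions was 69.9% with a −log10 q of at least 10 in all 3 lists and 70.3% with lists of equal length. It was not computed for the peaks in all 3 lists under those settings, so the size of the contrast there is not known.

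**Figure D4:**
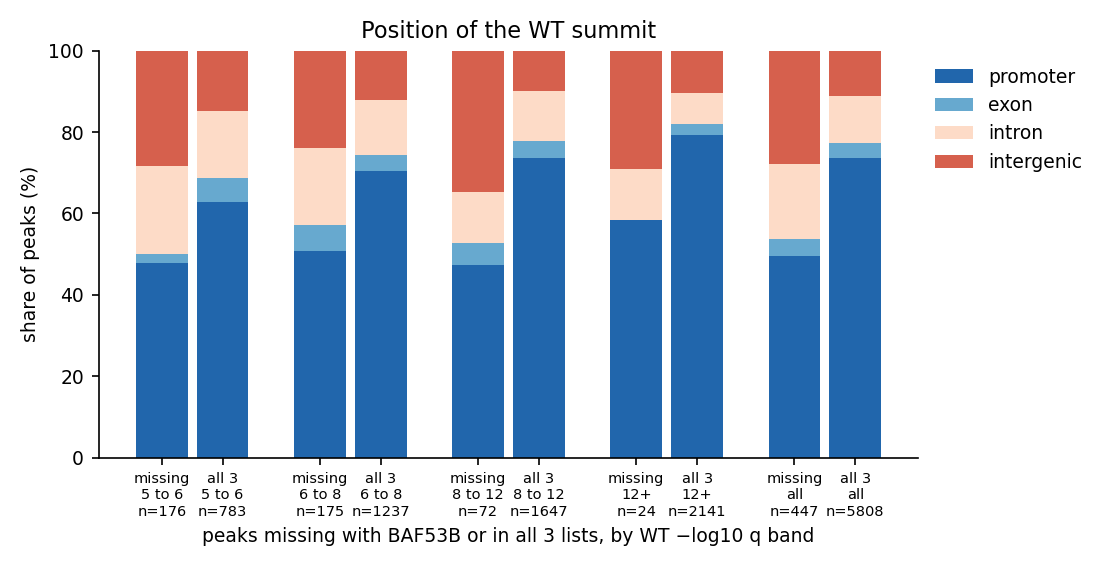
Position of the WT summit, as stacked shares in percent, for regions missing with BAF53B and in all 3 lists, in bands of WT −log10 q and over all bands, with n under each bar. The promoter share of the missing regions is below that of the peaks in all 3 lists in each band, 49.4% against 73.6% over all bands.

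For comparison, WT peaks with the opposite pattern, absent in dKO and present with BAF53B, numbered 459. Of these 12.6% (9.90 to 16.0) were promoters, against the 49.4% of the regions missing with BAF53B. Their GC content had a median of 47.3%, against 60.2%.

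The median GC content within 100 bp of the summit was 60.2% (58.7 to 61.7) against 64.2% in the peaks of all 3 lists, and the CpG observed over expected ratio was 0.667 against 0.835. Among promoters alone the medians were 65.2% (63.2 to 66.2) and 65.7% (65.2 to 66.2), which overlap. In introns they were 53.7% (51.2 to 57.7) and 61.2% (60.2 to 62.2), with CpG ratios of 0.309 and 0.647. In intergenic DNA the GC medians were 53.7% and 55.2%, with CpG ratios of 0.367 (0.318 to 0.465) and 0.543 (0.488 to 0.629). Over all regions the GC median was 65.2% with a −log10 q of at least 10 in all 3 lists, and 65.7% with lists of equal length. Matching medians of the peaks in all 3 lists were not computed, so whether the GC contrast holds under those settings is not known.

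Motifs were searched on both strands within 100 bp of the WT summit, and shares are of regions of that same window. The CTCF core was found in 21 regions, or 4.70% (3.09 to 7.07), against 1.26% in the peaks of all 3 lists and 1.75% of all WT peaks. Away from promoters it was 7.52% (4.75 to 11.7) against 2.93%, whose upper bound was 3.90%. Among distal peaks with a WT −log10 q under 8 the shares were 7.87% (4.74 to 12.8) and 4.56% (3.21 to 6.43), which overlap. The 21 regions had a median pileup of 31 in WT and 38 in dKO, and 5 had a scaled dKO pileup at least 1.5 times the limit. Of those printed above, the dKO pileup was 73 at PSMD1, a proteasome subunit, 61 near AP1M1 and 55 at CYS1. At BNIP1 it was 62, read outside the WT region.

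Other motifs were also more frequent than in the peaks of all 3 lists. The GATA site AGATAA was in 5.15% (3.45 to 7.60) against 2.39% (2.03 to 2.82). The TEAD site GGAATG was in 14.3% (11.4 to 17.9) against 9.99% (9.24 to 10.8). The E-box CAGCTG was in 14.5% (11.6 to 18.1) against 10.7% (9.92 to 11.5). Their shares of all WT peaks were 4.16%, 11.7% and 11.8%. Within distal peaks and within promoters the intervals of all 3 overlapped. The E-box CAGATG was found in 11.6% (8.98 to 14.9) of the regions against 5.53%, and in 8.24% of all WT peaks. At a WT −log10 q under 8 the shares were 12.9% (8.77 to 18.6) and 10.0% (7.96 to 12.6) in distal peaks, and 7.51% (4.44 to 12.4) and 4.70% (3.70 to 5.96) in promoters, both of which overlap. The X-box of RFX factors was found in 16 regions, or 3.58% (2.22 to 5.73), against 1.74% (1.43 to 2.11) and 1.98% of all WT peaks. In distal peaks its shares were 3.98% and 3.32%, and in promoters 3.17% (1.54 to 6.39) and 1.17% (0.889 to 1.54). In promoters at a WT −log10 q under 8 they were 2.89% (1.24 to 6.59) and 0.661% (0.348 to 1.25). The AP-1 site TGANTCA was found in 27 regions, or 6.04% (4.18 to 8.65), against 4.03% in the peaks of all 3 lists and 7.31% of all WT peaks. It occurred in 24 of 226 distal regions (10.6%), where 9.71% of distal peaks in all 3 lists held it. Of the 459 WT peaks absent in dKO and present with BAF53B, 33.3% (29.2 to 37.8) held an AP-1 site, and of the WT peaks in neither other list 13.9%. Only 12.6% of the 459 were promoters, against 49.4% of the regions. Their distal share was not computed, so this comparison is not matched for position. The SOX site, CCATTGT or CCTTTGT, was found in 7.38% (5.30 to 10.2) against 4.89% and 6.08% of all WT peaks. In distal peaks the SOX shares were 11.5% (7.97 to 16.3) and 8.08% (6.82 to 9.55). In promoters they were 3.17% (1.54 to 6.39) and 3.74% (3.22 to 4.36), and the intervals overlapped in both.

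Promoter motifs were less frequent. The NFY box GATTGG was found in 11.2% (8.59 to 14.4) of the regions against 26.0%, with 21.2% of all WT peaks. Within promoters it was 14.5% (10.4 to 19.7) against 28.4% (27.1 to 29.8). Within promoters at a WT −log10 q under 8 it was 13.3% (9.02 to 19.2) against 17.4% (15.5 to 19.5), which overlap. The GC box GGGCGGGG of SP and KLF factors was found in 15.9% against 29.2%, with 22.9% of all WT peaks. Within promoters the GC box was in 23.1% (18.0 to 29.1) against 33.1% (31.7 to 34.6). At a WT −log10 q under 8 these promoter shares were 24.9% (19.0 to 31.8) and 31.6% (29.2 to 34.2), which overlap. The ETS site CCGGAAG did not separate promoters, with 18.6% (14.0 to 24.2) against 18.1% (17.0 to 19.3), and was in 12.4% of all WT peaks. YY1, searched as AAGATGGCG, was found in 1 region, or 0.224%, against 2.74%, with 2.09% of all WT peaks. A motif match is a description and does not show that a factor was bound.

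**Figure D5:**
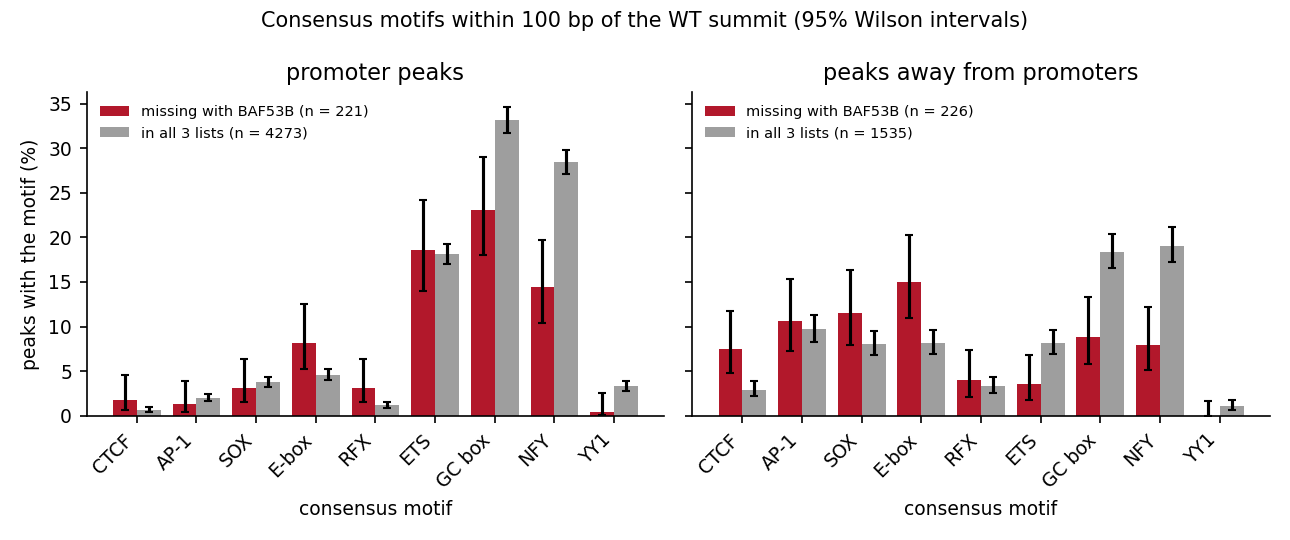
Share of peaks with each consensus motif within 100 bp of the WT summit, in percent, for regions missing with BAF53B (red) and in all 3 lists (grey), at promoters (left) and away from them (right), with Wilson 95% intervals. CTCF is higher among red distal peaks (7.52% against 2.93%) and NFY is lower among red promoter peaks (14.5% against 28.4%).

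The regions marked 255 protein-coding genes by promoter, 4.6% of the 5540 genes whose promoter held a peak of each of those 2 lists. At 55 of them another BAF53B peak stood in the same 3 kb window, and at 200 none did. Among genes that encode chromatin regulators, the promoter of KMT2D, an H3K4 methyltransferase, had a pileup of 34 in WT and 57 in dKO against a limit of 42. KDM6B held 2 regions in its body, at exon 3 in the untranslated part (38 in WT and 75 in dKO, limit 49) and in intron 18 (36 and 72, limit 46). The study deleted the catalytic part of this gene in the dKO cells, so values at KDM6B outside WT come from an edited locus. The part of that edit in them was not tested. JARID2, a Polycomb cofactor, held 1 in an intron, with 30 in WT and 30 in dKO against a limit of 29. Of 16 genes in the KDM6, Polycomb and COMPASS list with a promoter peak in WT and dKO, 1 was marked. None of 15 BAF subunit genes was, and none of 14 RFX and ciliary genes.

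Of 7 genes of FGF and EGF receptor signalling with a shared promoter peak, 3 were marked, where the share over all 5540 such genes was 4.6%. The count is small, comes from 1 of many lists and was not tested. SPRY2 and SPRED2, inhibitors of RAS to MAPK signalling, had 41 and 69 (limit 42) and 41 and 67 (limit 46). ERBB3, a neuregulin receptor, had 32 and 44 (limit 38). FZD8, a WNT receptor, was 1 of 6 WNT genes and had 39 and 50 (limit 46). TGFB3, a TGF-beta ligand, was 1 of 14 and had 33 and 37 (limit 36). PDGFRA, which marks oligodendrocyte precursors, had 32 and 37 (limit 38), and MAML3, a Notch coactivator, had 28 and 31 (limit 29) in its body. Apart from SPRY2 and SPRED2 these dKO pileups lay close to their limits.

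Of 9 AP-1 genes, 2 were marked, again a small count beside the 4.6% over all genes with a shared promoter peak. FOS had 36 in WT and 85 in dKO against a limit of 48, with no other BAF53B promoter peak. FOSB had 38 and 74 against 49, and another BAF53B peak stood in its window. CCND1, cyclin D1, was the only marked gene of 24 in the cell cycle list and had 37 and 114 against 54, at a region 1998 bp upstream of its start. PMAIP1 and BBC3, which encode the NOXA and PUMA death proteins, had 26 and 40 (limit 32) at the promoter and 40 and 60 (limit 51) in an intron.

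Of 8 axon guidance genes with a shared promoter peak 2 were marked, as were 1 of 7 synaptic genes and 1 of 3 ion channel and receptor genes. The share over all genes was 4.6%, and counts this small do not separate from it. EFNA5, an ephrin ligand, had 33 and 65 (limit 41). SEMA3D, a secreted semaphorin, had 30 and 36 (limit 31). CNTN4, a contactin, had 29 and 44 (limit 34). GRIK1, a kainate receptor subunit, had 28 and 31 (limit 29), and SCN8A, a sodium channel, had 25 and 26 (limit 26) in an intron. UNC13A, which primes synaptic vesicles, had 38 and 79 (limit 44) in an exon, the largest of this group. PCDH15, a protocadherin, had 29 and 25 (limit 26) in an exon.

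Larger families were marked at about the background share of 4.6%. Of 229 ZNF genes with a shared promoter peak, 9 were marked (3.93%), with ZNF827 at 34 and 58 (limit 35), ZNF713 at 26 and 46 (limit 28) and ZNF600 at 27 and 29 (limit 29). ZNF75D and ZNF449 shared 1 region. Of 71 solute carriers 4 were marked (5.63%). No promoter was marked among the lists of progenitor markers, neuronal differentiation, collagen and matrix, epithelial junctions, neural crest, cadherin, Notch or Hedgehog genes, which had 1 to 5 genes each with a shared promoter peak. The pluripotency, HOX, mesenchymal and endothelial lists had none with a shared promoter peak to be marked.

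By chromosome, the share missing with BAF53B was 19.7% (14 of 71, 12.1 to 30.4) on chromosome X. On the autosomes it ran from 4.17% (24 of 576, chromosome 19) to 11.5% (9 of 78, 6.19 to 20.5, chromosome 21). Chromosome Y held 4 of the regions and its share was not computed, so a high share particular to X is not shown. Read mapping at repeats could not be examined from peak lists. Of the 14 X regions 12 were promoters. They ran from a WT pileup of 25 to 38 and a dKO pileup of 30 to 54, with limits of 26 to 29. FMR1, the fragile X RNA-binding protein gene, had 26 and 30 against 26, and OGT, the O-GlcNAc transferase, had 34 and 30 against 26. Shared X peaks had a median WT pileup of 29 against 39 on the autosomes, and the part of peak strength in the X share was not tested. At the boundary of the rule, the nearest regions inside it lay 12 bp (THUMPD1), 33 bp (RAB11FIP4) and 35 bp (FAM234A) from a BAF53B peak. The nearest outside overlapped one by 6 bp (PPM1A), 18 bp (TCF25) and 29 bp (NAA30). Of the 447 regions, 45 had a BAF53B peak within 1 kb, and the median distance to one was 26064 bp.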

How the data were processed

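ATAC-seq was run on 6 samples, 2 in each of 3 groups. According to the study's methods, adaptors were cut with cutadapt 1.13, reads aligned to hg38 with Bowtie2 2.2.5 and duplicates removed with SAMtools 1.3.1 and Picard 1.90; peaks were called with MACS2, whose version and options are not given in the sources used here. Each group was deposited as 1 list per group, with a fold (a ratio of summit pileup to local background), a −log10 p value, a −log10 q value (the score by which peaks were listed) and the summit offset of each peak, as the authors made them. No column was left unused as another sample's. Read depth is unknown here, and MACS2's local background and the summit pileup were recovered from the deposited fold and −log10 p with a pseudocount of 1; a whole pileup solved 100% of peaks. Pileups were compared after division by each list's genome background (6.33 in WT, 6.81 in dKO and 6.78 with BAF53B).

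Overlaps needed 1 bp. Positions used GENCODE v44, with promoters within 3 kb of a protein-coding start, and sequence came from hg38. Shares have Wilson 95% intervals and medians order statistic intervals, which cover counting error only. The named regions were the 10 of highest WT and the 10 of highest dKO −log10 q, the 5 highest and lowest ratios, those at genes of fixed lists (up to 5 a list) and those at the edge of the rule; further regions of at least 2 times the limit, on chromosome X or shown for a motif were chosen after their values were seen. Members and lists were chosen with earlier results of these data known. Some genes and gene groups are not reported here. The peak solving and overlap steps were tested on simulated data. Scripts ran in Python 3.11.15 with scipy 1.17.1 for the Poisson tails, pysam 0.24.0 for the genome, pandas 2.3.3 for the tables and matplotlib 3.10.9 for the plots.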

Additional observations from a re-analysis of the deposited data

How the results depend on the processing

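The number of regions and the values over them depended on the lists' thresholds. With a −log10 q of at least 10 in all 3 lists there were 216 regions (33 of them among the 447), the median log2 dKO over WT was 0.43, 69.9% were promoters, GC was 65.2% and 100% of dKO partners lacked a BAF53B peak. With 10 in WT and dKO and 5 with BAF53B there were 33 regions, at 0.47, 60.6% promoters, GC 63.2%, 27 marked genes and 1.18% of shared peaks missing. With a reciprocal overlap of 50% there were 826, at 0.54, 63.4% promoters, GC 62.7%, 51.3% of dKO partners without a BAF53B peak, 659 genes and 17.8% missing. With lists of equal length there were 666 (139 of them among the 447), at 0.74, 70.3% promoters, GC 65.7%, 556 genes and 13.5% missing. Promoter share and GC content of the regions thus rose under each of these 4 settings, and the cause was not tested. Neither was computed for the peaks in all 3 lists under them, so those contrasts are known for the main setting only. Without regions within 1 kb of a BAF53B peak 6.43% were missing and 100% of dKO partners lacked a BAF53B peak, as they did by construction when the partner was required to lack one. The promoter share was 42.7% with a 1 kb window and 67.3% with the starts of all transcripts. The median log2 dKO over WT was 0.12 from the deposited fold and 0.48 from −log10 p, and was above 0 under each setting run. The 2 other settings of the BAF53B calling limit, chosen after seeing the data, gave 172 and 194 regions at 1.5 times the limit in place of 130. Counting only the 415 regions whose dKO summit lay inside the WT region, also chosen after seeing the data, gave 119 and a median log2 dKO over WT of 0.31. No paired analysis was possible because the deposited values are per group, and for the same reason no replicate could be left out. Depth limits each missing call: the lowest summit pileup in the BAF53B list was 26.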
